A study of Mus musculus with 33 samples.

Results

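The genes described here are 8 precursors of neuropeptides: Penk, Pdyn, Tac1, Tac2, Crh, Cartpt, Adcyap1 and Nts. They were chosen by name, and all 8 were found among the 38355 genes of the count files of aged mice and among the 40678 loci of the FPKM files of young mice. RNA came from CA1 tissue of the hippocampus of 32 mice with values in 5 groups. APP mice aged 8 to 10 months carry a human mutant APP transgene driven by the Thy1 promoter, which is active in neurons; 6 received JQ1 at 50 mg per kg for 10 days and 6 received vehicle with 10% DMSO. Vehicle-treated WT mice of the same age had 4 samples with values out of 5 labelled, and their strain label names the APP line whereas their titles say WT. Young C57B/6JRj WT mice, 3 months old, formed 8 JQ1-treated and 8 vehicle-treated samples, with 50 mg per kg for 13 days. JQ1 blocks the pockets by which BET family proteins bind acetylated histones. According to the methods all mice were killed after a water maze test, and the aged and young experiments also differ in sex and in how the reads were quantified.

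A neuropeptide precursor is a secretory protein that convertases cut inside dense core vesicles into short peptides, which are released during sustained firing and act on G protein-coupled receptors. Penk gives the enkephalins and Pdyn the dynorphins, which are the opioid peptides acting mainly on delta and mu receptors and on kappa receptors, respectively. Tac1 gives substance P and neurokinin A, Tac2 gives neurokinin B, Crh the corticotropin-releasing hormone of the stress response, Cartpt the CART peptides, Adcyap1 the peptide PACAP, and Nts neurotensin. In the hippocampus these genes are known from small subsets of cells, such as dynorphin in the granule cells of the dentate gyrus, whose mossy fibers release it, and enkephalin, tachykinins and Crh in GABAergic interneurons. In bulk tissue, fewer cells of a type and less RNA per cell cannot be told apart.

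None of the 8 genes passed an adjusted p of 0.05 in any of the comparisons, whether of JQ1 with vehicle or of APP with WT mice. Of all genes, 1.08% passed for JQ1 against vehicle in APP mice, 2.57% for vehicle-treated APP against WT mice, 2.06% for JQ1-treated APP against WT mice, 0.00543% for JQ1 in young mice and 1.41% for the difference between the JQ1 effects in APP and young mice. What stood out lay within groups. Penk stood at 216 and 233 CPM (reads on the gene scaled to all reads on genes of the library) in 1 JQ1-treated and 1 vehicle-treated APP mouse and at 23.7 to 46.4 CPM in the other 14 aged mice, Pdyn followed the markers of dentate granule cells from mouse to mouse in both experiments, and Crh and Cartpt stayed near 1 CPM. An aged mouse had 14605459 to 25339482 reads on genes, so that 3 reads correspond to 0.118 to 0.205 CPM, and FPKM files hold no depth. CA1 pyramidal markers were found in every aged mouse, with a summed level of 744 to 1141 CPM, but dentate granule markers summed to 49.9 to 218 CPM and vehicle-treated aged WT replicate 4 held 3235 CPM of choroid plexus markers, against at most 141 CPM in the others. Each sample was taken to be a separate mouse, which the labels do not state. The p-values set differences between groups against the spread between these samples. App, the check of the transgene, was higher in all 6 vehicle-treated APP mice (2463 ± 186 CPM) than in all 4 WT mice (1918 ± 44.5 CPM; SD), with an exact two-sided permutation p of 0.00952, the smallest possible here, and an edgeR adjusted p of 0.0519.

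For 6 of the 8 genes RefSeq promoter windows of GRCm38.p6 were given, from 250 bases before to 50 bases after a start. They were searched on both strands for the cAMP response element TGACGTCA, its core TGACG, and the AP-1 letters TGANTCA, since CREB and AP-1 factors are the textbook regulators of peptide genes during neuronal activity. These letters were found in 4 of the 6 genes. The stretches with the matches are shown 5′ to 3′, with the matched letters in capitals, because they show that Cartpt holds the complete element, that Tac1 holds the core at 2 places and that Nts holds both kinds of letters.

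Cartpt, chr13:99900778-99900805, minus strand: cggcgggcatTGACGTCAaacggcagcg
Adcyap1, chr17:93198916-93198940, plus strand: actaggatgcTGACGtcttttactg
Tac1 distal, chr6:7554854-7554878, plus strand: cctaaaattgCGTCAtttcgaacac
Tac1 proximal, chr6:7555008-7555032, plus strand: tctacaggctCGTCAcgcctgagat
Nts core element, chr10:102490570-102490594, minus strand: tagggaagatCGTCActttccatca
Nts AP-1 letters, chr10:102490609-102490635, minus strand: actctttctgTGAGTCAgaaatcctga

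CGTCA is the core read from the other strand. The complete element of Cartpt contains the core on both strands and lies 112 to 105 bases before the RefSeq start of its window. The GENCODE annotation used for counts places the gene ends elsewhere. Its Cartpt gene reaches chr13:99901091 and its Tac1 gene begins at chr6:7554879, so the Cartpt and the proximal Tac1 stretches lie inside the annotated genes. The complete element was found in 1.79% of 32851 promoter windows of 300 bases, the core in 20.8% and the AP-1 letters in 7.81%. A core of 5 bases in a window of this size is therefore common, and no letters of these 3 kinds were found in the windows of Pdyn and Tac2.

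Levels were compared between genes only per length, as CPM per kb of exon in aged mice and as FPKM (fragments scaled to transcript length and to mapped fragments) in young mice. In aged mice the order by the median over 16 mice was Penk (21.7 CPM per kb), Nts (19.6), Tac2 (5.06), Pdyn (3.78), Tac1 (2.61), Adcyap1 (1.96), Crh (0.922) and Cartpt (0.776). The order of Penk and Nts did not exceed their spread, since Penk was above Nts in 9 of 16 mice. Nts lay above Tac2 in all 16 mice with no overlap of the ranges, and Adcyap1 lay above Crh in all 16 within a mouse. Between Tac2 and Pdyn, Pdyn and Tac1, Tac1 and Adcyap1, and Crh and Cartpt the mean log2 gap (0.49, 0.52, 0.40 and 0.24) was smaller than its SD over mice (0.65, 0.67, 0.44 and 0.59).

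**Figure D1:**
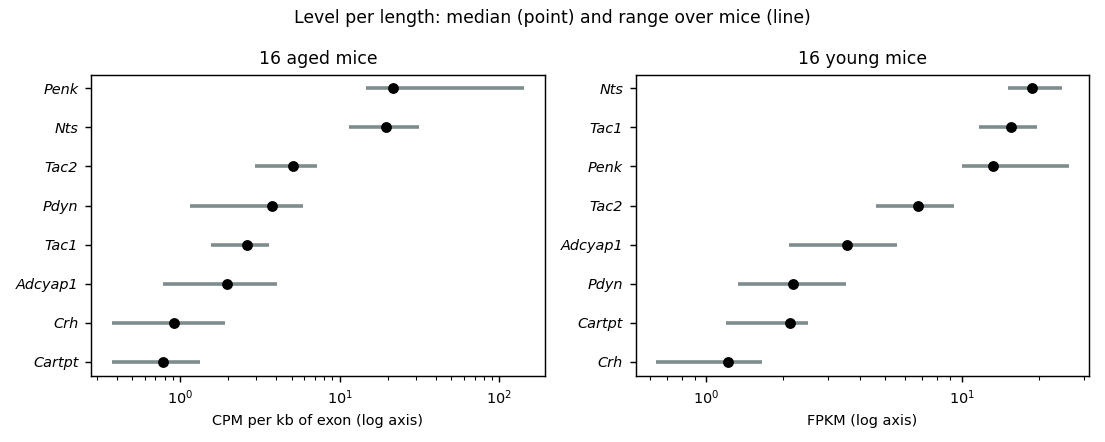
Level of each precursor gene per length, in CPM per kb of exon over 16 aged mice (left) and in FPKM over 16 young mice (right), both on log axes; points are medians and lines run from the lowest to the highest mouse. Penk and Nts lie above the range of Tac2 in the left panel, and the Penk line reaches 143 CPM per kb in the highest of 16 mice.

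In young mice the order by the median was Nts (18.8 FPKM), Tac1 (15.6), Penk (13.2), Tac2 (6.75), Adcyap1 (3.55), Pdyn (2.19), Cartpt (2.12) and Crh (1.21). Penk was above Tac2 in all 16 young mice with no overlap, and Tac2 was above Adcyap1 in all 16, whereas Tac1 was above Penk in 11 of 16 and Pdyn above Cartpt in 10 of 16. Tac1 was the gene whose place differed most between the orders, but the locus used for its FPKM ends at chr6:7562978 and the annotated gene, on which counts were scaled by 3.399 kb of exon, at chr6:7565834. The scales differ and were not compared. Likewise the FPKM of Penk belong to a locus of 55224 bases, chr4:4133480-4188703 in mm10, which joins Penk with the antisense gene A830012C17Rik, whereas in the count files Penk (chr4:4133531-4138819, minus strand, protein-coding) was counted alone and the antisense gene had 0 to 14 reads per mouse.

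Penk, the enkephalin precursor, had 28.3, 33.0 and 216 CPM as the lowest, median and highest value in 6 JQ1-treated APP mice, and 23.7, 31.6 and 233 CPM in 6 vehicle-treated APP mice. The 4 aged WT mice had 25.9, 35.6, 39.1 and 38.3 CPM. In each APP group the highest value belongs to the mouse numbered 1, with 5270 and 5229 reads, and the next mouse of its group had 42.7 and 46.4 CPM. The group means were 63.5 ± 74.7 CPM with JQ1, 65.1 ± 82.9 CPM with vehicle and 34.7 ± 6.04 CPM in WT (SD). The log2 fold change of JQ1 against vehicle in APP mice was -0.03 ± 0.69 (SE; edgeR quasi-likelihood test, adjusted p = 0.989). Vehicle-treated APP against WT mice gave 0.90 ± 0.80 (adjusted p = 0.657) and JQ1-treated APP against WT mice 0.87 ± 0.80 (adjusted p = 0.708). Without both APP mice numbered 1 these values were 0.08 ± 0.17, -0.16 ± 0.18 and -0.07 ± 0.18, so that the direction against WT turned and the SE fell.

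**Figure D2:**
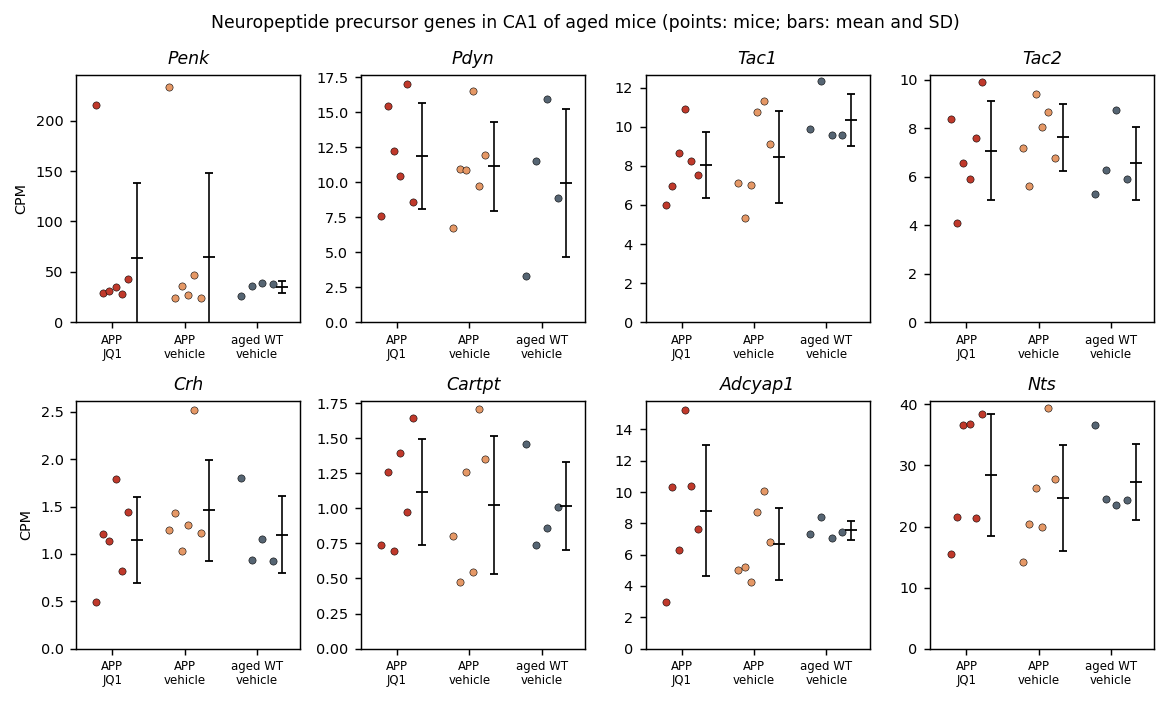
CPM of each precursor gene in 6 JQ1-treated APP, 6 vehicle-treated APP and 4 vehicle-treated aged WT mice; points are mice, and the bar beside each group is the mean with its SD, cut at 0 for Penk. Penk stands at 216 and 233 CPM in 1 mouse of each APP group and at 23.7 to 46.4 CPM in the other 14 mice, while the groups overlap for all 8 genes.

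Genes of the peptide and marker lists were read in the 2 mice with high Penk after the Penk values had been seen. The genes named are a part of those outside the range of the other 14 aged mice. Npy, the precursor of neuropeptide Y, had 93.9 CPM in the JQ1-treated and 199 CPM in the vehicle-treated mouse, against 49.8 to 77.9 CPM in the other 14. Gal, the galanin precursor, had 0.818 and 6.47 CPM, against 0 to 0.546 CPM, and Grp, the precursor of gastrin-releasing peptide, 64.9 and 57.7 CPM against 21.7 to 47.4 CPM. Cort, the cortistatin precursor, was below the range of the others (2.20 to 4.50 CPM) with 0.818 and 1.47 CPM. Nts was lowest of its group in each of them with 15.4 and 14.2 CPM, and Pdyn too, with 7.57 and 6.74 CPM. The granin Scg2 had 250 and 307 CPM against 153 to 248 CPM. Of the subiculum markers, Fn1 was above the others (159 and 172 against 75.5 to 156 CPM) and Slc17a6 below them (18.5 and 24.0 against 26.4 to 61.1 CPM). The CA3 marker Iyd was below them too, with 0.205 and 0.268 against 0.342 to 4.22 CPM.

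The 2 mice were not alike in the genes that rise with neuronal activity. The summed level of 8 activity-regulated genes was 158 CPM in the JQ1-treated mouse, the lowest of all 16, and 752 CPM in the vehicle-treated mouse, within the 248 to 803 CPM of the others. Fos, the immediate early gene that forms AP-1, was 9.90 and 62 CPM, against 5.15 to 26.6 CPM in the others. Of the 5 dentate granule markers, Dsp, an adhesion protein of desmosomes, and Tdo2 were lowest of all in these mice. Dsp had 3.52 and 1.92 CPM, and Tdo2 had 1.43 and 0.981 CPM. C1ql2 went the other way, with 23.2 and 20.8 CPM against 5.44 to 23.1 CPM in the others. Prox1 and Lct lay within the range of the others, and so did the sum of all 5, with 96.8 and 71.7 CPM. Penk is abundant in striatum as well, and of the 6 striatal markers Drd2 had 2.09 and 3.26 CPM (others 0.923 to 2.29) and Adora2a 1.31 and 1.92 CPM (others 1.08 to 2.51). Ppp1r1b had 52.2 and 111 CPM (others 37.8 to 67.2) and Gpr6 0.286 and 0.401 CPM (others 0.340 to 1.84), while Drd1 and Rgs9 lay within the range of the others. The sum of all 6, of which Ppp1r1b was the largest part, was 80.4 and 143 CPM against 50.1 to 90.4 CPM. The 10 GABAergic interneuron markers summed to 854 and 1099 CPM against 882 to 1159 CPM. Lamp5 was below the others in both mice, with 25.0 and 25.7 CPM against 35.0 to 56.7 CPM. Gad1 was below them in the JQ1-treated mouse only (263 against 275 to 396 CPM). Slc32a1 was above them in the vehicle-treated mouse only (78.7 against 46.1 to 71.7 CPM), and the rest lay within the range of the others. Microglia markers summed to 542 and 381 CPM against 180 to 518 CPM, and astrocyte markers to 1416 and 1038 CPM against 751 to 1315 CPM. The part of these in the Penk level was not tested.

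In young mice Penk had 10.8, 13.8 and 26.2 FPKM as the lowest, median and highest of 8 JQ1-treated mice and 10.0, 12.2 and 14.5 FPKM in 8 vehicle-treated mice. With JQ1, 3 of 8 mice lay above every vehicle-treated mouse, with 26.2, 20.1 and 18.5 FPKM, and the other 5 lay within the vehicle range. The means were 16 ± 5.29 and 12.2 ± 1.65 FPKM, the log2 fold change 0.33 ± 0.16 (limma on log2(FPKM + 0.1), adjusted p = 0.981) and the exact two-sided permutation p 0.0738. The study listed Penk as raised by JQ1 in these samples by its own test, with a PCR value in the same direction, whereas limma on the FPKM did not call it. As the study picked out Penk on these samples, its direction here is no independent evidence. The JQ1 effect in APP minus that in young WT mice was -0.26 ± 0.58 (limma interaction, adjusted p = 0.855).

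Pdyn (chr2:129686565-129699844, minus strand), the dynorphin precursor, had 7.57, 11.3 and 17.0 CPM (lowest, median, highest) in JQ1-treated APP mice and 6.74, 10.9 and 16.5 CPM in vehicle-treated APP mice. The 4 WT mice had 3.30, 11.5, 16 and 8.90 CPM, so that the lowest of 16 values and the third highest were both WT. The log2 fold change of JQ1 against vehicle was 0.10 ± 0.30 in APP mice (edgeR adjusted p = 0.896) and -0.10 ± 0.20 in young mice (limma adjusted p = 0.988), where means were 2.23 ± 0.708 and 2.37 ± 0.672 FPKM. Vehicle-treated APP against WT mice gave 0.17 ± 0.34 (edgeR adjusted p = 0.865).

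The WT mouse with 3.30 CPM of Pdyn also had the lowest sum of dentate granule markers, 49.9 CPM, and the lowest Prox1, the transcription factor that defines granule cells, at 19.0 CPM, where the highest mouse had 79.6 CPM. Its CA3 markers summed to 136 CPM, the highest of all mice. Bok (52.5 CPM) and Grik4 (62.8 CPM) were highest of all in this mouse. Coch (3.74 CPM), Cdh24 (13.7 CPM) and Iyd (3.35 CPM) lay within the range of the other mice. Across 16 aged mice the log2 level of Pdyn, with each group's mean taken off, correlated with the mean of the 5 dentate granule markers at r = 0.87 (Spearman 0.89), and across 16 young mice at r = 0.86 (Spearman 0.87). These are descriptions over mice in which both measures come from the same library, and without both APP mice numbered 1 the aged value was 0.85. The genes most like Pdyn in aged mice were Fam163b (r = 0.94), Prox1 (0.91) and the calcium release channel Ryr1 (0.91), among 14964 genes. In young mice they were Wdr41 (0.86), Btbd3 (0.85) and Stxbp6 (0.84), among 15060 loci.

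**Figure D3:**
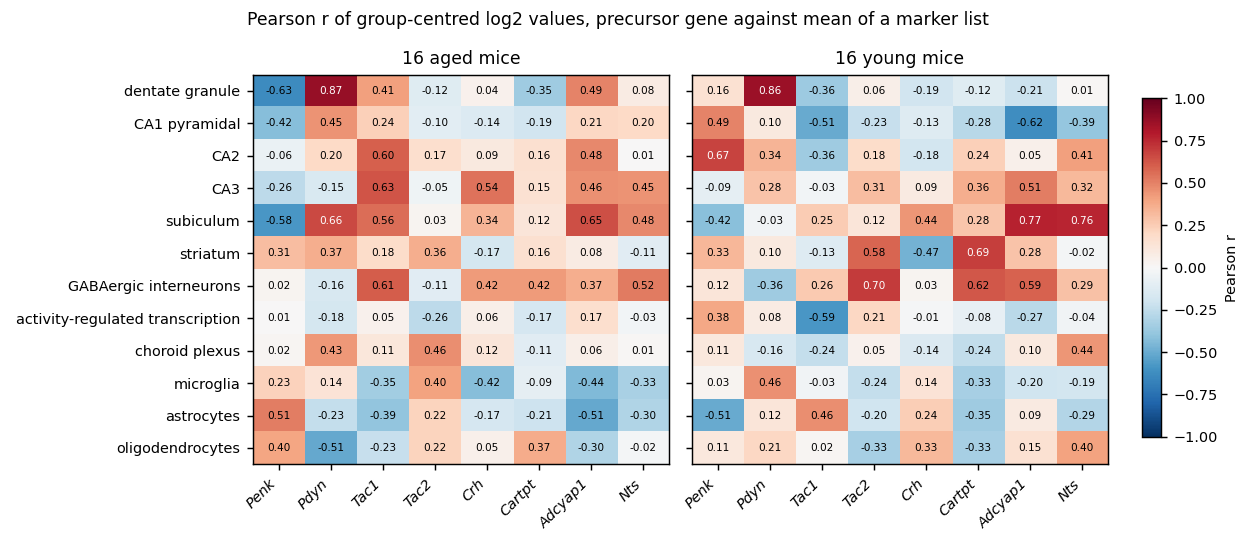
Pearson r between the group-centred log2 level of each precursor gene (columns) and the mean of each marker list (rows) over 16 aged mice (left) and 16 young mice (right), with r printed in each cell. Pdyn with dentate granule markers is the highest cell in both panels (0.87 and 0.86), and Adcyap1 with subiculum markers is 0.65 and 0.77.

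Tac1 (chr6:7554879-7565834, plus strand), the substance P precursor, had the most negative fold changes against WT of the 8 genes, and they did not pass the test. It had 6.01, 7.89 and 10.9 CPM (lowest, median, highest) in JQ1-treated and 5.33, 8.13 and 11.3 CPM in vehicle-treated APP mice, and 9.91, 12.3, 9.56 and 9.57 CPM in the 4 WT mice. Of the APP mice, 5 of 6 with JQ1 and 4 of 6 with vehicle lay below every WT mouse. The log2 fold change against WT was -0.36 ± 0.20 with JQ1 (edgeR adjusted p = 0.441; exact two-sided permutation p = 0.0476, not adjusted) and -0.30 ± 0.20 with vehicle (adjusted p = 0.523). These comparisons share the WT mice. JQ1 against vehicle gave -0.07 ± 0.18 in APP mice (adjusted p = 0.885) and -0.04 ± 0.09 in young mice (limma adjusted p = 0.989), with 15.1 ± 1.34 and 15.6 ± 2.38 FPKM.

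Tac2 (chr10:127724478-127731768, plus strand), the neurokinin B precursor, had 4.08, 7.07 and 9.93 CPM in JQ1-treated and 5.62, 7.63 and 9.43 CPM in vehicle-treated APP mice (lowest, median, highest). The WT mice had 5.30, 6.26, 8.75 and 5.92 CPM, within the range of the APP mice. The log2 fold change was -0.11 ± 0.19 for JQ1 against vehicle in APP (edgeR adjusted p = 0.809), 0.22 ± 0.21 for vehicle-treated APP against WT (adjusted p = 0.690) and -0.01 ± 0.12 in young mice (limma adjusted p = 0.998). Young means were 6.79 ± 1.25 FPKM with JQ1 and 6.84 ± 1.09 FPKM with vehicle. The genes most like Tac2 in aged mice were Tmem106c (r = 0.91), Ddrgk1 (0.90) and Deaf1 (0.89), and in young mice Tac2 went with the mean of 10 GABAergic interneuron markers at r = 0.70 but in aged mice at -0.11.

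Crh (chr3:19693401-19695396, minus strand), the stress peptide precursor, had 0.491, 1.17 and 1.79 CPM in JQ1-treated APP mice, 1.03, 1.28 and 2.52 CPM in vehicle-treated APP mice, and 1.80, 0.937, 1.16 and 0.923 CPM in WT mice, so that all 3 groups overlapped. These values rest on 12 to 56 reads per mouse. The fold change of JQ1 against vehicle in APP mice was -0.36 ± 0.32 on the log2 scale (edgeR adjusted p = 0.595), and 2 of 6 JQ1-treated mice lay below every vehicle-treated mouse. In young mice Crh was the single gene of the 8 with an unadjusted p under 0.05. JQ1-treated mice had 0.637, 0.984 and 1.32 FPKM (lowest, median, highest) and vehicle-treated mice 1.09, 1.30 and 1.65 FPKM, so that 5 of 8 treated mice lay below every vehicle-treated mouse. The means were 1.02 ± 0.229 and 1.36 ± 0.201 FPKM, and the log2 fold change -0.40 ± 0.13 did not pass the correction over 18420 loci (limma p = 0.00812, adjusted p = 0.981; exact two-sided permutation p = 0.00715). Of all loci, 4.65% had an unadjusted p under 0.05 in this comparison. The JQ1 effect on Crh in APP minus that in young mice was 0.05 ± 0.29 (limma interaction, adjusted p = 0.954).

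**Figure D4:**
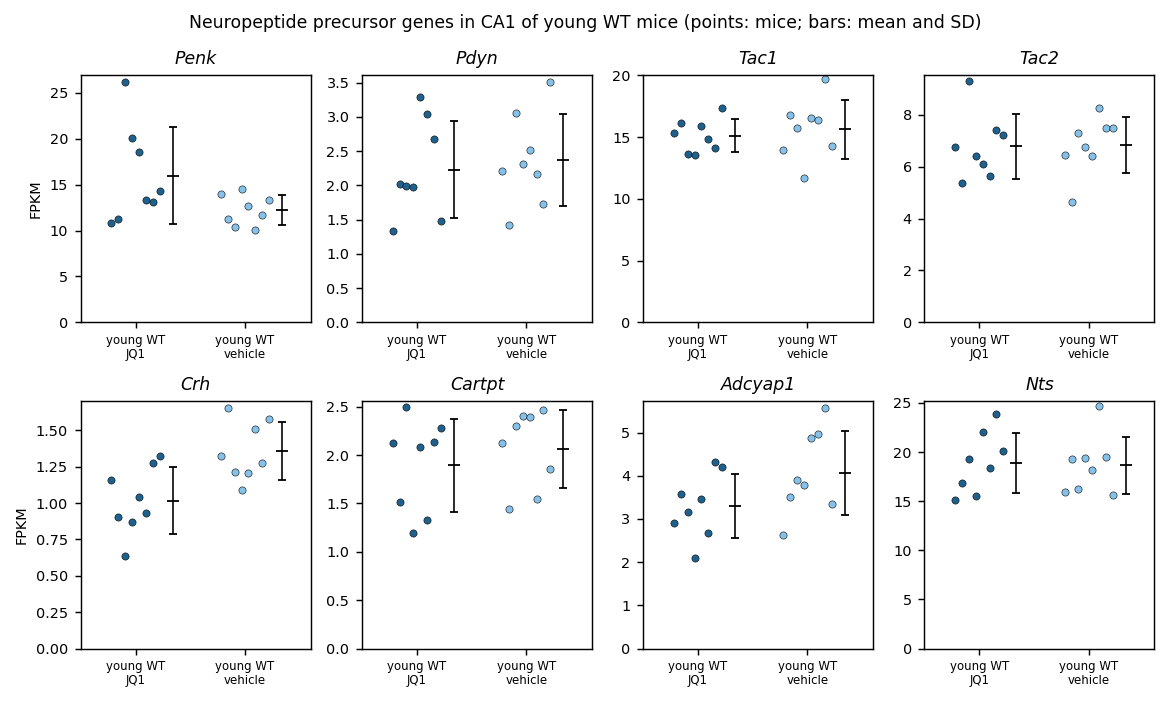
FPKM of each precursor gene in 8 JQ1-treated and 8 vehicle-treated young WT mice; points are mice, and the bar beside each group is the mean with its SD. With JQ1, Penk lies above all vehicle-treated mice in 3 of 8 and Crh below all of them in 5 of 8, and the groups overlap for all 8 genes.

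Adcyap1 (chr17:93199017-93206537, plus strand), the PACAP precursor, was the gene with the largest positive fold change for JQ1 in APP mice, and it did not pass the test. JQ1-treated APP mice had 2.95, 9.0 and 15.2 CPM (lowest, median, highest) and vehicle-treated APP mice 4.22, 6.02 and 10.1 CPM, while the 4 WT mice had 7.34, 8.43, 7.03 and 7.47 CPM. The WT values lay close together inside the range of both APP groups, and the difference in spread was not tested. The log2 fold change of JQ1 against vehicle was 0.41 ± 0.29 in APP mice (edgeR adjusted p = 0.498) and -0.29 ± 0.16 in young mice (limma adjusted p = 0.981), where means were 3.30 ± 0.750 FPKM with JQ1 and 4.07 ± 0.978 FPKM with vehicle. The difference between these effects was the largest of the 8 genes at 0.58 ± 0.33 (limma interaction, adjusted p = 0.376). Without both APP mice numbered 1 it was 0.78 ± 0.28 (limma adjusted p = 0.129).

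Nts (chr10:102481756-102490486, minus strand), the neurotensin precursor, had 15.4, 29.1 and 38.4 CPM (lowest, median, highest) in JQ1-treated and 14.2, 23.3 and 39.3 CPM in vehicle-treated APP mice, and 36.6, 24.6, 23.5 and 24.4 CPM in WT mice. The JQ1-treated mice fell apart into 3 with 15.4 to 21.6 CPM and 3 with 36.6 to 38.4 CPM. The log2 fold change of JQ1 against vehicle was 0.20 ± 0.25 in APP mice (edgeR adjusted p = 0.730) and 0.02 ± 0.10 in young mice (limma adjusted p = 0.998), with 18.9 ± 3.08 and 18.6 ± 2.95 FPKM. Cartpt (chr13:99898489-99901091, minus strand), the precursor of the CART peptides, had 10 to 38 reads per aged mouse. Its levels were 0.693 to 1.64 CPM with JQ1 and 0.476 to 1.71 CPM with vehicle in APP mice, and 1.46, 0.740, 0.858 and 1.01 CPM in WT mice, with a log2 fold change of 0.11 ± 0.34 for JQ1 against vehicle (edgeR adjusted p = 0.899). In young mice Cartpt had 1.89 ± 0.479 and 2.06 ± 0.403 FPKM, a log2 fold change of -0.13 ± 0.16 (limma adjusted p = 0.981).

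**Figure D5:**
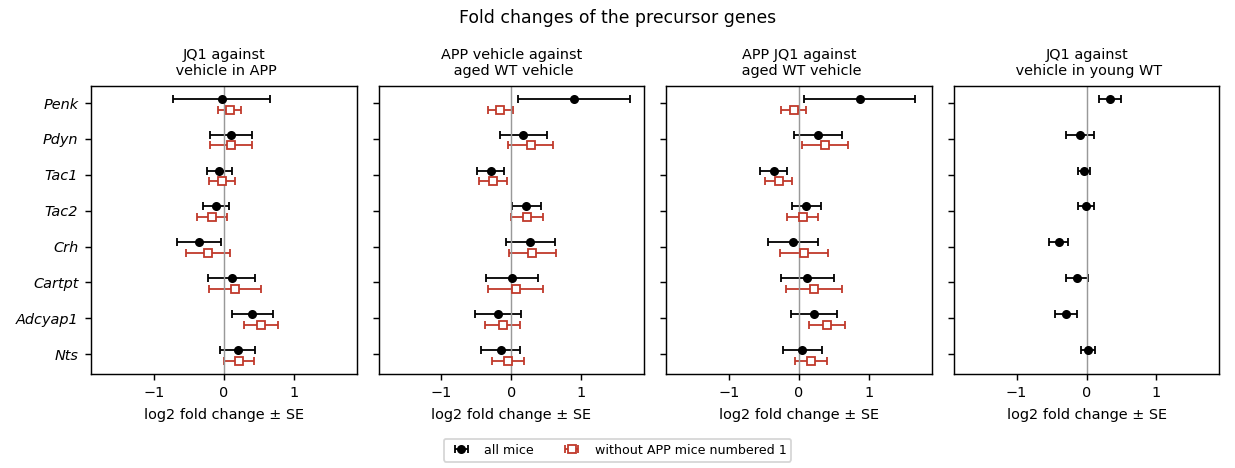
Log2 fold change with its SE for each precursor gene in 4 comparisons, from all mice (black) and, in the 3 aged comparisons, without both APP mice numbered 1 (red, open). Penk moves from 0.90 to -0.16 in vehicle-treated APP against WT mice, and no gene passed the threshold in any panel.

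Counted over the 8 genes, 0 passed an adjusted p of 0.05 for JQ1 against vehicle in APP mice, for vehicle-treated APP against WT mice and for JQ1-treated APP against WT mice, each over 16962 genes by edgeR. At an unadjusted p under 0.05 the counts were also 0, against 17.6%, 14.4% and 14.1% of all genes, and DESeq2 called 0 of the 5, 7 and 7 genes to which it gave an adjusted p. In young mice limma called 0 of 8, with Crh under an unadjusted p of 0.05, and for the difference between the JQ1 effects 0 of 8 over 11416 genes, also at an unadjusted p under 0.05. The median log2 fold change of the 8 genes was 0.04 for JQ1 in APP and -0.07 for JQ1 in young mice, beside -0.0010 and 0.0025 for all features.

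The receptors and binding proteins were also measured, and 0 of 16 passed in the 3 aged comparisons and 0 of the 12 tested in young mice. The PACAP receptor Adcyap1r1 had 153 to 244 CPM, the neurotensin receptor Ntsr2 95.8 to 217 CPM and Sort1, the sorting receptor that also takes up neurotensin, 489 to 810 CPM over 16 aged mice. Of the opioid receptors the nociceptin receptor Oprl1 had 51.8 to 69.8 CPM, the delta receptor Oprd1 8.71 to 18.1 CPM, the kappa receptor Oprk1 0.756 to 3.06 CPM and the mu receptor Oprm1 0.292 to 1.20 CPM. Oprm1 had the largest fold change of the 16, with 0.949 ± 0.316 CPM in JQ1-treated and 0.426 ± 0.167 CPM in vehicle-treated APP mice (log2 fold change 1.13 ± 0.35, edgeR adjusted p = 0.113). The tachykinin receptors Tacr1, Tacr2 and Tacr3 ranged from 0.218 CPM in the lowest mouse of Tacr2 to 7.21 CPM in the highest of Tacr1. Crhbp, the protein that binds and holds Crh, had 27.8 to 59.0 CPM, and the receptors Crhr1 and Crhr2 had 11.2 to 22.8 and 2.43 to 7.50 CPM.

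Genes around the precursors that passed were few. Of 13 genes of prohormone processing, 2 fell with JQ1 in APP mice and 0 rose: Pcsk1n, the inhibitor of the convertase PC1, from 95.8 ± 27.1 to 51.8 ± 10.7 CPM (log2 fold change -0.88 ± 0.17, edgeR adjusted p = 0.0151), and the granin Vgf from 110.5 ± 41.0 to 64.2 ± 6.77 CPM (-0.78 ± 0.17, adjusted p = 0.0337). The convertases Pcsk1 and Pcsk2 did not pass, with log2 fold changes of -0.02 ± 0.29 and 0.07 ± 0.12. Of 12 peptidases that cleave neuropeptides, Lnpep, a membrane aminopeptidase that cleaves oxytocin and vasopressin, rose and 0 fell. Lnpep went from 4.89 ± 1.99 to 30.7 ± 6.15 CPM (2.65 ± 0.23, edgeR adjusted p = 9.32e-06). In young mice Lnpep had 17.1 and 17.0 FPKM with JQ1 and vehicle. The study listed Pcsk1n and Vgf as lowered and Lnpep as raised by JQ1 in these APP samples. Their directions here are therefore no independent evidence. Of 31 other peptide precursors, 20 could be tested; 0 passed for JQ1 in APP mice, Apln, the apelin precursor, was lower in vehicle-treated APP than in WT mice (12.2 ± 2.25 against 19.5 ± 1.23 CPM, adjusted p = 0.0319), and Sst, the somatostatin precursor, lower in JQ1-treated APP than in WT mice (163 ± 8.75 against 228 ± 43.3 CPM, adjusted p = 0.0291). The dependence of read counts on GC content differed between the APP groups, with a slope of log2 level on GC fraction of -2.45 to 0.104 with JQ1 and 0.773 to 2.22 with vehicle. Once GC content and gene length were corrected for, the log2 fold change of Vgf was -0.42 for JQ1 against vehicle in APP mice (edgeR adjusted p = 0.480). In JQ1-treated APP against WT mice it was -0.69 (edgeR adjusted p = 0.0787). With each of 16 aged libraries left out in turn, the call of Lnpep was never lost and that of Pcsk1n was lost without JQ1-treated APP replicate 2 (-0.83). The calls of Vgf for JQ1 against vehicle, of Apln and of Sst were lost with 8, 8 and 7 of the libraries. For Vgf these were JQ1-treated APP replicates 2, 3, 4 and 6, vehicle-treated APP replicates 3 and 5 and WT replicates 3 and 4 (log2 fold changes over all 16 fits -0.85 to -0.56). For Apln they were vehicle-treated APP replicates 1, 2, 4 and 5 and all 4 WT mice (-0.76 to -0.62), and for Sst JQ1-treated APP replicates 1, 2, 5 and 6 and WT replicates 3, 4 and 5 (-0.61 to -0.39). Without both APP mice numbered 1, Apln and Sst no longer passed (edgeR adjusted p = 0.0597 and 0.0562). For JQ1 against vehicle, Vgf did not pass without a filter on low counts (edgeR adjusted p = 0.0585) or in a fit of only the groups compared (adjusted p = 0.0606).

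Among the 8 genes, Tac1 and Adcyap1 varied together in both experiments, with r = 0.73 over 16 aged and 0.58 over 16 young mice after each group's mean was taken off. Adcyap1 and Nts gave r = 0.47 and 0.68, the former 0.06 without both APP mice numbered 1, and Crh and Nts 0.76 and 0.23. Penk and Pdyn, the opioid pair, gave -0.41 in aged mice, 0.06 without both APP mice numbered 1, and 0.19 in young mice. Markers of hippocampal fields varied between libraries, and r for Adcyap1 against the 3 subiculum markers was 0.65 and 0.77. The part of the dissection in the correlations between precursors was not tested. Penk and the dentate granule markers gave -0.63 in aged mice, but -0.06 without both APP mice numbered 1. In aged mice Nts and Crh also went with the GC slope of the library (r = -0.54 and -0.69).

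The genes most like the others are given with r over 16 mice and no test. In aged mice Penk was closest to Slc7a4 (0.94), Fancd2 (0.93) and Arfgap3 (0.92), but without both APP mice numbered 1 to Abhd11, Tmub1 and Card19 (0.91, 0.91 and 0.90). Tac1 was closest to B230354K17Rik (0.93), Trpm4 (0.83) and Ccl27a (0.81), and Crh to Fut9 (0.88), Pdik1l (0.86) and Pgap1 (0.86). The first gene for Cartpt (0.90), Adcyap1 (0.87) and Nts (0.96) has no symbol in the reference, and the next were Gm12371 and Txnl4b (0.89 each) for Cartpt, Ahi1 (0.80) and Sowahb (0.79) for Adcyap1, and Hdgfl3 and Serpini1 (0.92 each) for Nts. In young mice the closest were Capzb (0.89) for Penk, Dgat1 (0.87) for Tac1, Acpt (0.88) for Tac2, Dnaic1 (0.80) for Crh, Ecel1 (0.79) for Cartpt, H2-T23 (0.90) for Adcyap1 and Dll3 (0.87) for Nts. No gene was among the 3 closest to the same precursor in both experiments.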

How the data were processed

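RNA from CA1 of 32 mice was analysed as deposited. According to the methods, the authors aligned reads to mm10 with STAR and counted them per gene with htseq for aged mice; the deposited counts are whole and not normalized, and lines that name no gene held 40.6% to 52.9% of each file and were left out. For young mice the authors deposited FPKM from cufflinks/cuffdiff, which hold no depth. Names, positions and exonic lengths came from GENCODE vM21 on the same build, and 36602 of 38355 IDs had a symbol. Counts were tested with edgeR version 4.0.16 (TMM, filterByExpr, robust quasi-likelihood fit of 3 groups; 16962 genes), FPKM with limma version 3.58.1 (trend, robust) on log2(FPKM + 0.1) for 18420 loci with at least 0.5 FPKM in 8 of 16 mice, and the difference between the JQ1 effects with limma on 11416 genes found in both, with Benjamini-Hochberg adjustment over all features and a threshold of 0.05. DESeq2 version 1.42.0 was an alternative. Single genes were also tested with exact permutation tests (smallest p 0.00216 for 6 against 6, 0.00952 for 6 against 4 and 0.000155 for 8 against 8). The fits were tested on simulated data. No pair of libraries within an aged group agreed within sampling noise, and no pair of files within a young group was identical throughout. An SE gives the uncertainty of a fold change, estimated from the spread between these mice.

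The 8 genes, the gene lists and the markers were chosen with earlier results of these data known. Named genes are the 8, list genes past the threshold, receptors and binding proteins, the 3 genes most like each precursor with a mean of at least 1 CPM or FPKM, App, and markers that move with a result. Leaving out both APP mice numbered 1 was chosen after seeing the data.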

Additional observations from a re-analysis of the deposited data

Results flagged for a closer look

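Within each of 5 groups the highest and lowest mouse of each of the 8 genes was compared with its neighbour by Dixon's ratio of gap to range, which chance passes in about 1 in 20 of the 40 groups, and 6 mice passed. Penk had 216 CPM in JQ1-treated APP replicate 1 (next 42.7 CPM) and 233 CPM in vehicle-treated APP replicate 1 (next 46.4 CPM). Tac1 had 12.3 CPM in aged WT replicate 3 (next 9.91 CPM). Crh had 2.52 CPM in vehicle-treated APP replicate 5 (next 1.43 CPM), a value of 56 reads. Nts had 36.6 CPM in aged WT replicate 1 (next 24.6 CPM), the mouse with the lowest sum of dentate granule markers and the highest sum of CA3 markers. The GC slope of this library was -2.43, against 0.153 to 0.814 in the other WT mice, and the part of either in its Nts level was not tested. In young mice Nts had 24.7 FPKM in vehicle-treated replicate 6 (next 19.5 FPKM).

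The JQ1 effect differed between APP and young WT mice for 2 genes of prohormone processing by the limma interaction: Pcsk1n by -1.25 ± 0.24 on the log2 scale (adjusted p = 0.0128) and Vgf by -0.83 ± 0.21 (adjusted p = 0.0426). In young mice JQ1 against vehicle gave 0.39 ± 0.15 for Pcsk1n and 0.11 ± 0.13 for Vgf (SE, limma adjusted p = 0.981 for each). The study listed Pcsk1n as raised by JQ1 in the young WT mice too. Age, sex and read processing differ between the experiments as well and cannot be told apart from the APP genotype. The call of Vgf was lost with 18 of 32 libraries left out in turn and without both APP mice numbered 1 (-0.66), and that of Pcsk1n in none of them.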

How the results depend on the processing

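None of the 8 genes passed the threshold in any of 139 fits, and 90 of 1071 fold changes under alternatives turned their sign, 69 of them with a mouse left out; in each case the cause was not tested beyond the settings named. The counts over all genes, beside which the 8 were read, moved. DESeq2 called 749 genes for JQ1 against vehicle in APP mice, 804 for vehicle-treated APP against WT and 790 for JQ1-treated APP against WT, beside 184, 436 and 349 by edgeR. A fit of only the groups compared called 679 and 227 in the comparisons with WT, the GC and length correction 38 for JQ1 in APP mice, and leaving out both APP mice numbered 1 called 216 for JQ1-treated APP against WT and 243 beside 161 for the difference between the JQ1 effects. In young mice 0 loci were called without a filter on FPKM, where 1 was called with it. Between the APP groups, mice numbered 1, 2 and 4 deviated with their namesakes (r 0.33, 0.28 and 0.34, each best with its own number), among them both mice with high Penk, whereas numbers 3, 5 and 6 gave -0.11 to -0.034. Against WT r was -0.17 to -0.0030 with vehicle and -0.47 to 0.22 with JQ1, and in young mice -0.070 to 0.10, with 2 of 8 best with their own number. As the labels tie no number to a shared origin and not every pair was over 0.1, the number was not used as a pairing in the main tests. With that number as a replicate block, 87, 35 and 21 genes were called in the aged comparisons and 0 in young mice, and with block and GC correction together 31, 44 and 46. The block ended the calls of Vgf for JQ1 in APP mice (edgeR adjusted p = 0.0793), of Apln (0.0637), of Sst (0.166) and of Vgf in JQ1-treated APP against WT (0.160), but not those of Lnpep and Pcsk1n, and block with correction ended the same calls. Under the block alone the log2 fold change of Penk for JQ1 in APP mice was 0.062, that of Cartpt in vehicle-treated APP against WT -0.096, and that of Nts in JQ1-treated APP against WT -0.045; with block and correction these were 0.13, -0.27 and -0.22, Nts for JQ1 in APP mice was -0.052, and Cartpt and Adcyap1 in JQ1-treated APP against WT were -0.015 and -0.080. Under the correction alone Penk and Nts for JQ1 in APP mice were 0.047 and -0.072, Cartpt in vehicle-treated APP against WT -0.14 and Nts in JQ1-treated APP against WT -0.097. Cartpt in vehicle-treated APP against WT, at 0.01 the value closest to 0, was -0.0016 with DESeq2, -0.0074 with RLE size factors and -0.0086 without a filter on counts. Without both APP mice numbered 1, Penk was 0.083, -0.16 and -0.075 in the aged comparisons, Crh in JQ1-treated APP against WT 0.073, and the difference of Tac1 0.029. With each mouse left out in turn, genes called ran from 65 (without JQ1-treated APP replicate 2) to 446 (without WT replicate 1) for JQ1 in APP mice, from 154 (without WT replicate 1) to 601 for vehicle-treated APP and from 11 (without WT replicate 5) to 651 for JQ1-treated APP against WT (both highest without JQ1-treated APP replicate 4), from 0 to 2 in young mice, and from 41 to 368 for the difference (without vehicle-treated APP replicate 3 and young JQ1-treated replicate 2). Over the same settings the log2 fold changes for JQ1 in APP mice ran from -0.96 to 1.01 for Penk (without JQ1-treated and vehicle-treated replicate 1), -0.041 to 0.24 for Pdyn, -0.17 to 0.035 for Tac1, -0.21 to 0.0085 for Tac2 and -0.022 to 0.31 for Cartpt. For vehicle-treated APP against WT they ran from -0.15 to 1.06 for Penk, -0.12 to 0.47 for Pdyn, -0.20 to 0.23 for Cartpt and -0.34 to 0.026 for Nts. For JQ1-treated APP against WT they ran from -0.075 to 1.02 for Penk, -0.016 to 0.58 for Pdyn, -0.27 to 0.18 for Crh, -0.0076 to 0.35 for Cartpt, -0.011 to 0.40 for Adcyap1 and -0.051 to 0.23 for Nts. In young mice they ran from -0.095 to 0.011 for Tac1, -0.090 to 0.031 for Tac2 and -0.033 to 0.078 for Nts, and for the difference from -0.71 to 0.22 for Penk, -0.11 to 0.074 for Tac1, -0.22 to 0.020 for Tac2 and -0.087 to 0.24 for Crh. The fold changes of Crh for JQ1 (-0.52 to -0.14 in APP and -0.45 to -0.32 in young mice), of Adcyap1 (0.19 to 0.60 and -0.37 to -0.21) and of Penk in young mice (0.22 to 0.40) kept their sign. Crh and Cartpt rest on 10 to 56 reads per aged mouse, and the part of counting error in their spread was not tested.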
